A study of Mus musculus with 24 samples.

Results

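Genes of glycolysis and genes that low oxygen induces were followed in CT26, a colon carcinoma line of the BALB/c mouse, with and without Sun1. The set was chosen by name, with earlier results of these data known. It holds 37 of the 35976 genes counted, and all 37 were present in the files. The Sun1 protein spans the inner membrane of the nucleus and helps tie it to the cytoskeleton. Whole tumors, taken 14 days after cells were injected under the skin of the flank, gave 7 libraries from the Sun1 knockout line and 8 from control line 1. Tumor cells isolated with a kit from dissociated tumors gave 2 libraries each from the knockout line, control line 1 and control line 2. Cells grown in RPMI with 10% serum gave 1 library from each of these 3 lines. The control lines carry Sun1 and are labelled wild type. There is 1 knockout line, and control tumors come from 1 control line, so loss of Sun1 and any other difference between those lines cannot be told apart. The labels do not say whether numbered libraries are separate animals, so the p-values below measure the spread between these libraries, which may be technical.

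Cells take up glucose through transporters of the Slc2a family, split it to pyruvate in glycolysis and, when oxygen is short or growth is fast, reduce pyruvate to lactate, which leaves through transporters of the Slc16a family. Low oxygen stabilises the alpha subunits of the hypoxia-inducible factors (HIF), which pair with Arnt, bind short DNA motifs and raise transcription of most glycolytic enzymes, of the vessel growth factor Vegfa, of enzymes that modify collagen and of their own inhibitor Egln3. Solid tumors hold poorly perfused regions, so these genes commonly serve as a readout of tumor hypoxia. Many of them are also expressed by macrophages, neutrophils and other host cells.

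The sequence just before the transcription start shows what many of these genes have in common. The core of the HIF site is ACGTG or GCGTG. In the 250 bases upstream of each start in RefSeq (GRCm38.p6), this core was present on either strand in 40 of 50 annotated starts (80.0%), covering 31 of the 34 set genes that have an entry. Over all 32851 upstream windows of the same length 12679 held it (38.6%). The windows of the set were also richer in G and C, with a median of 60.4% against 52.4%, and the part of base composition in the count was not tested. The windows of 5 genes are given here in lower case, 5′ to 3′ on the strand of the gene, with each core in capitals, read as CACGT or CACGC where it lies on the other strand; CACGTG holds the core on both strands and counts as 2. Slc2a1 and Hk2 were lower in every knockout tumor, Bnip3 has the most cores of the 5, Eno2 was lower in every knockout tumor with no core in this window, and Car9 went the other way. The windows are Slc2a1 chr4:119108495-119108744 on the plus strand with 2 cores, Hk2 chr6:82774455-82774704 on the minus strand with 2, Bnip3 chr7:138909507-138909756 on the minus strand with 5, Eno2 chr6:124769674-124769923 on the minus strand with 0 and Car9 chr4:43506776-43507025 on the plus strand with 1. A match describes letters in a window and not a bound site.
Slc2a1: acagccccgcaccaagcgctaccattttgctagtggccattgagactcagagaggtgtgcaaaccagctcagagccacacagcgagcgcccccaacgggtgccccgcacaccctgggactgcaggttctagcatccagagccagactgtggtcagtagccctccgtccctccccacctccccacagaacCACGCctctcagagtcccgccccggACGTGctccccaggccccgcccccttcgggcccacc
Hk2: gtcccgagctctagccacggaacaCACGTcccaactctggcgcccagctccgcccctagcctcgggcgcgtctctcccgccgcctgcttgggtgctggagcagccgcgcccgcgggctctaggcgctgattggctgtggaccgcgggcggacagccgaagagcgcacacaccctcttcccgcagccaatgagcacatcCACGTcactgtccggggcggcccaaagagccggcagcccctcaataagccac
Bnip3: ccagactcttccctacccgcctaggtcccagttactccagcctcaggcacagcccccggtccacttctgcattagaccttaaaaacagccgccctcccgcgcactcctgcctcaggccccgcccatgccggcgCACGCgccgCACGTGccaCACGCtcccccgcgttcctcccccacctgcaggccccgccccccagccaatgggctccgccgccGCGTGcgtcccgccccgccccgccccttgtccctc
Eno2: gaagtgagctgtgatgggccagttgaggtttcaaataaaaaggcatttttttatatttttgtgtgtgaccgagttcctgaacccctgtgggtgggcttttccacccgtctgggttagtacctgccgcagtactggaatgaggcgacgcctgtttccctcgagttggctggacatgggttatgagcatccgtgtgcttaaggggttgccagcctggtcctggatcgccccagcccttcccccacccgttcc
Car9: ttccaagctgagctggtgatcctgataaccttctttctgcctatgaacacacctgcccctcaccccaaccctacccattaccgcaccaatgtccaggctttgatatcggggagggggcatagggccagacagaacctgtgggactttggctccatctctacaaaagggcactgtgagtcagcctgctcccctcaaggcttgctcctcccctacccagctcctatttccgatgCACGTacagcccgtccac

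Libraries held 14140769 to 24651279 expected counts in tumors (n = 15), 17068356 to 22593612 in purified cells (n = 6) and 18832201 to 20716917 in culture (n = 3). Levels below are in CPM, which are counts scaled to the size of each library. Sun1 was lower in knockout tumors in every library, at 57.5 CPM (SD 5.19, n = 7) against 179 CPM (SD 8.60, n = 8). Of markers of colon epithelium, Epcam and Krt19 were listed at 0 in all cultured and purified libraries. Krt20 was at 62.8 to 152 CPM there. The sum of 9 such markers was 48.4 to 94.4 CPM in knockout and 93.6 to 185 CPM in control tumors. In purified cells it was 104 to 109 CPM in the knockout, 105 CPM in line 1 and 169 to 209 CPM in line 2. In tumors 2 of the 5 tested were lower in the knockout by the edgeR test below and 0 higher. Log2 fold changes of the 5 ran from -5.37 to 0.352. The lowest value was -6.57 in purified cells and -7.31 in culture. The cause was not tested. Knockout tumor 6 and control tumor 1 stand apart from the other tumors of their genotype in the set, and control line 1 replicate 1 stands apart among purified cells. Several results that rest on them are given with and without them.

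In whole tumors most of the set was lower in the knockout. By an edgeR quasi-likelihood test with Benjamini-Hochberg adjustment over all 13752 genes tested, 23 of the 37 genes fell, 3 rose and 11 did not pass an adjusted p of 0.05. Over all genes 19.0% fell and 18.1% rose. The median log2 fold change of the set was -0.345, against 0.00915 over all genes. In 10 genes all 7 knockout tumors lay below all 8 control tumors, and in 0 genes above; over all genes these shares were 6.08% and 3.12%. The 10 genes are Slc2a1, Hk1, Hk2, Gpi1, Pfkl, Eno2, Pkm, Slc16a3, Ndrg1 and Mxi1. In bulk tissue, fewer cells that express a gene and less RNA per cell cannot be told apart.

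**Figure D1:**
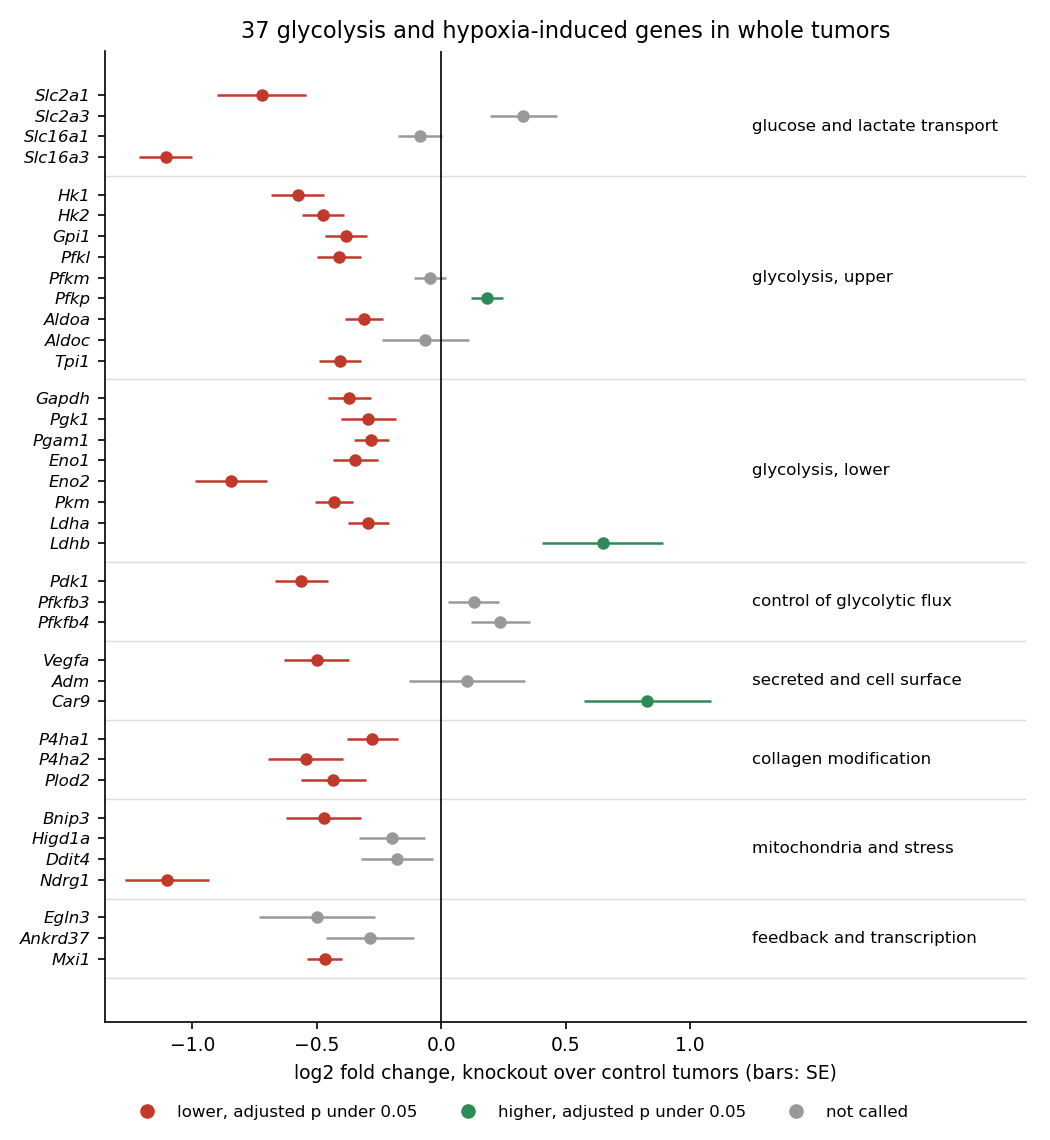
Log2 fold change of the 37 genes between knockout (n = 7) and control tumors (n = 8), grouped by role, with the standard error as bars and color for calls at an edgeR adjusted p of 0.05. Of the 37 genes, 23 sit to the left of 0 in red and 3 to the right in green (Pfkp, Ldhb and Car9).

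Of the 4 transporters of glucose and lactate, 2 fell. Slc16a3 (MCT4), the lactate exporter of hypoxic and glycolytic cells, measured 22.8 CPM in the lowest knockout tumor, 41.7 in the median and 47.9 in the highest, against 73.3, 87.5 and 92.6 CPM in control tumors. Its highest knockout tumor was thus well below its lowest control tumor, and its change of -1.11 ± 0.11 on the log2 scale (standard error, as for every ± below; edgeR adjusted p = 5.45e-07) was the largest fall among the 37. Slc2a1 (GLUT1), the main glucose importer of most tumor cells, measured 91.9, 212 and 275 CPM in knockout tumors at its lowest, median and highest and 294, 338.5 and 430 CPM in control tumors, a change of -0.72 ± 0.18 (edgeR adjusted p = 0.00594). The genotypes did not overlap for Slc2a1 either, though by a narrow margin. The other members of each pair did not pass the test. Slc16a1 (MCT1), which carries lactate in both directions, was at 146 to 244 CPM against 168 to 197 CPM, a difference of -0.09 ± 0.09 (edgeR adjusted p = 0.466). Without knockout tumor 6, its highest value, Slc16a1 fell by 0.197 (edgeR adjusted p = 0.00784). Slc2a3 (GLUT3), a high-affinity glucose importer of neurons and leukocytes, was at 7.58 to 16.3 CPM against 8.10 to 12.04 CPM (0.33 ± 0.14, edgeR adjusted p = 0.0596). It passed as higher without knockout tumor 1 or 3 or control tumor 8 (edgeR adjusted p down to 0.0114) and in DESeq2 (adjusted p = 0.0458).

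In the upper part of glycolysis, from glucose to triose phosphates, 6 of 9 genes fell and 1 rose. Hexokinases trap glucose in the cell as glucose 6-phosphate. Hk1, the broadly expressed form, measured 61.4, 109 and 118 CPM at the lowest, median and highest knockout tumor and 134, 149 and 193 CPM in control tumors, a fall of 0.58 ± 0.11 on the log2 scale (edgeR adjusted p = 0.000524). Hk2, the form that HIF induces, measured 71.5, 104.5 and 110 CPM against 119, 133 and 153 CPM (-0.47 ± 0.08, edgeR adjusted p = 0.000272). Both hexokinases therefore separated the genotypes completely, at similar size. Gpi1, which turns glucose 6-phosphate into fructose 6-phosphate, measured 513, 752 and 830 CPM against 851, 949 and 1135 CPM (-0.38 ± 0.08). Tpi1, which interconverts the triose phosphates, measured 866, 1128 and 1189 CPM against 1144, 1422 and 1728 CPM (-0.41 ± 0.08), and its ranges overlapped at the edge. Aldoa, the main aldolase, fell as well (-0.31 ± 0.08), while Aldoc, an aldolase best known from brain, was at 2.31 to 4.94 CPM in knockout tumors and within that range in control tumors (-0.06 ± 0.17).

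The 3 phosphofructokinase genes, whose enzyme commits sugar to glycolysis, did not move together. Pfkl, the liver form, fell by 0.41 ± 0.09 on the log2 scale (edgeR adjusted p = 0.00146), from 290, 303 and 374 CPM at the lowest, median and highest control tumor to 157, 234 and 268 CPM. Pfkp, the platelet form, rose by 0.18 ± 0.06 (edgeR adjusted p = 0.0301), with 5 of 7 knockout tumors above the highest control tumor. Leaving out knockout tumor 3, 4 or 7 or control tumor 1 put Pfkp over the threshold (edgeR adjusted p up to 0.0718). Pfkm, the muscle form, stayed at 31.6 to 36.6 CPM against 31.4 to 39.3 CPM (-0.04 ± 0.07, edgeR adjusted p = 0.623).

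In the lower part, from glyceraldehyde 3-phosphate to lactate, 7 of 8 genes fell and 1 rose. Pkm, the pyruvate kinase of tumor cells, measured 1974, 2583 and 2848 CPM in knockout tumors at its lowest, median and highest, all below the 2999, 3460 and 3850 CPM of control tumors, a fall of 0.43 ± 0.08 (edgeR adjusted p = 0.000255). Eno2, the neuronal enolase that HIF also induces, measured 43.7, 91.4 and 107 CPM against 127, 154 and 179 CPM, a fall of 0.84 ± 0.15 on the log2 scale (edgeR adjusted p = 0.00044). Eno2 was the enzyme with the largest fall. Gapdh, which makes the first NADH of glycolysis, measured 2482, 3406 and 3710 CPM against 3478, 4062 and 5025 CPM (-0.37 ± 0.09), with 5 of 7 knockout tumors below the lowest control tumor. Smaller falls were seen in Pgk1 and Pgam1, which handle the phosphoglycerates, in the main enolase Eno1 and in lactate dehydrogenase A, Ldha (log2 fold changes -0.29, -0.28, -0.34 and -0.29). Pgk1 missed the threshold when any 1 of 11 tumors was left out (edgeR adjusted p up to 0.0924). Eno1 is uncertain, since the near-identical Eno1b also took reads, at a mean of 1016 CPM in knockout and 1222 CPM in control tumors. Ldhb, the lactate dehydrogenase of oxidative tissues, rose by 0.65 ± 0.24 (edgeR adjusted p = 0.0398) from a very low level, 0.543 to 1.58 CPM in control and 1.05 to 2.25 CPM in knockout tumors. Its call was lost when any 1 of 9 tumors was left out.

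**Figure D2:**
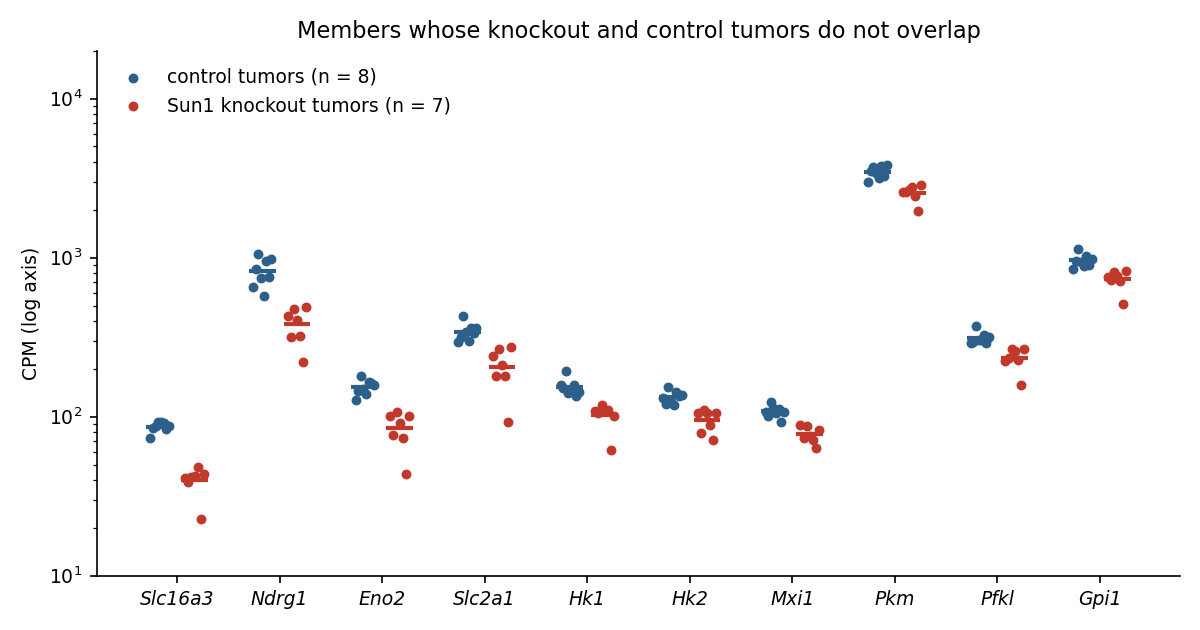
CPM of each tumor on a log axis for the 10 genes whose genotypes do not overlap, with points for tumors (7 knockout, 8 control) and lines for means. Slc16a3 and Ndrg1 are the furthest apart, with Slc16a3 at most 47.9 CPM in knockout and at least 73.3 CPM in control tumors, and 1 knockout tumor (tumor 6) sits below the others in each gene.

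Of the 3 genes that set the flow into and out of glycolysis, 1 fell. Pdk1 inhibits pyruvate dehydrogenase, which turns pyruvate into acetyl-CoA inside mitochondria. Pdk1 measured 53.3, 88.2 and 108 CPM in knockout tumors at its lowest, median and highest. Control tumors were at 101, 128 and 142 CPM, so the knockout fell by 0.56 ± 0.11 (edgeR adjusted p = 0.000635). Only the highest knockout tumor reached the control range. Pfkfb3 and Pfkfb4, which make the phosphofructokinase activator fructose 2,6-bisphosphate, did not pass the test (0.13 ± 0.10 and 0.24 ± 0.12, edgeR adjusted p = 0.336 and 0.115). Pfkfb4 passed without control tumor 5 (edgeR adjusted p = 0.0272).

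Outside glycolysis the set holds 13 HIF targets, of which 7 fell and 1 rose. Ndrg1, a stress-induced gene used as a hypoxia marker, showed the second largest fall, with 221, 407 and 492 CPM at the lowest, median and highest knockout tumor against 573, 803 and 1053 CPM, a change of -1.10 ± 0.17 (edgeR adjusted p = 0.000189). Its ranges did not overlap. Mxi1, which represses Myc targets, measured 63.9, 75.4 and 88.4 CPM against 92.4, 107 and 123 CPM (-0.47 ± 0.07, edgeR adjusted p = 5.12e-05). The collagen-modifying enzymes P4ha1, P4ha2 and Plod2, which hydroxylate proline and lysine, all fell (-0.28 ± 0.10, -0.54 ± 0.15 and -0.43 ± 0.13). P4ha1 lost its call without any 1 of 10 tumors (edgeR adjusted p up to 0.0817). Vegfa fell by 0.50 ± 0.13 and the mitophagy receptor Bnip3 by 0.47 ± 0.15 on the log2 scale. Bnip3 missed the threshold with no filter on low counts (edgeR adjusted p = 0.0539). A further 4 targets had negative values that did not pass: Egln3 (-0.50 ± 0.23, edgeR adjusted p = 0.0964), Ankrd37 (-0.29 ± 0.18), the respiratory chain factor Higd1a (-0.20 ± 0.13) and the mTOR inhibitor Ddit4 (-0.18 ± 0.15). Egln3 passed without control tumor 5 (edgeR adjusted p = 0.0454). The vasodilator peptide Adm showed 1.18 to 3.78 CPM in knockout and 1.63 to 4.04 CPM in control tumors (0.10 ± 0.23).

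Car9, a cell-surface carbonic anhydrase and one of the most used markers of hypoxia, rose in knockout tumors. It measured 12.6 CPM in the lowest, 39.4 in the median and 57.1 in the highest knockout tumor and 15.2, 23.6 and 32.0 CPM in control tumors, a rise of 0.83 ± 0.26 (edgeR adjusted p = 0.0207). In 5 of 7 knockout tumors Car9 was above every control tumor, and knockout tumor 6 was below every control tumor. Car9 was thus opposite in sign to Slc16a3, Ndrg1 and Slc2a1 in the same tumors.

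Some markers of host cells moved with genotype. Summed over 8 leukocyte genes, the level was 764 to 1230 CPM in knockout and 463 to 839 CPM in control tumors, and 7 of the 8 genes rose. The sum of 10 T cell genes was 103 to 181 CPM against 44.1 to 99.7 CPM, and that of 10 endothelial genes 108 to 166 CPM against 84.8 to 108 CPM. Sums of 10 macrophage genes (993 to 2280 against 644 to 1780 CPM) and 10 neutrophil genes (26.3 to 74.2 against 36.3 to 73.1 CPM) overlapped. So did sums of 10 fibroblast genes (1330 to 2160 against 1600 to 2220 CPM) and 6 erythroid genes (15.5 to 24.7 against 8 to 37.1 CPM). The sum of 13 skeletal muscle genes reached 158 CPM in knockout tumor 1, was 4.52 to 32.0 CPM in the other knockout tumors and was 2.94 to 17.7 CPM in control tumors. When the mean log2 CPM of Ptprc and Pecam1 was added to the fit, only Slc16a3 among the 37 genes kept its call (-1.30 ± 0.22, edgeR adjusted p = 0.00354). The median of the set moved from -0.345 to -0.322, while standard errors grew, for example from 0.17 to 0.34 in Ndrg1. Genotype accounts for 76.2% of the variance of that term, so host content and genotype cannot be told apart in this fit.

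Other genes of the same pathways were also listed by function. Of 22 tested genes of glucose transport, glycolysis and pyruvate use beyond the set, 4 fell and 1 rose, with a median log2 fold change of 0.0678. Those that fell were the ADP-dependent glucokinase Adpgk (-0.28), Eno1b (-0.26), the pyruvate dehydrogenase phosphatase Pdp1 (-0.22) and Dlat, a subunit of pyruvate dehydrogenase (-0.16); the urate and sugar transporter Slc2a9 rose (0.29). Among 9 tested HIF subunits and oxygen sensors 4 fell: the prolyl hydroxylases Egln1 and Egln2 (both -0.33), Hif1a (-0.22) and its partner Arnt (-0.22). Epas1, the HIF-2 alpha subunit of endothelial and myeloid cells, rose by 0.53 ± 0.14 and was at most 0.158 CPM in every purified or cultured library. Of 28 tested genes that hypoxia induces beyond the set, 13 fell and 5 rose, with a median of -0.252. The 4 with the smallest p all fell: the mitophagy receptor Bnip3l (-0.56 ± 0.07, edgeR adjusted p = 3.52e-06), the ubiquitin ligase Siah2 (-0.52 ± 0.09), the repressor Bhlhe40 (-0.62 ± 0.10) and endothelin Edn1 (-0.66 ± 0.12). The 5 that rose, named after their values were seen, were the collagen crosslinkers Lox (1.33) and Loxl2 (0.88), the secreted glycoprotein Stc2 (0.70), Rab20 (0.44) and the cytochrome oxidase subunit Cox4i2 (1.29). Lox was at 17.7 to 46.6 CPM in knockout tumors and at most 0.371 CPM in purified and cultured cells.

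Tumors of the same genotype did not carry the set at the same level. Knockout tumor 6 was the lowest of the 7 knockout tumors in 33 of 37 genes, where it was lowest in 28.2% of all genes tested, and its median deviation from the group mean was -0.511 on the log2 scale. It stood well below its group in Slc2a1 (91.9 CPM, the others 179 to 275), Egln3 (1.12 CPM, the others 2.94 to 4.07), Car9 (12.6 CPM, the others 30.4 to 57.1) and Slc16a3 (22.8 CPM, the others 39.1 to 47.9). The 4 genes in which it was not lowest were Slc2a3, Aldoc, Pfkfb4 and Slc16a1, and Slc16a1 had its highest value there (244 CPM, the others 146 to 172). The same tumor was lowest in 17 of 28 further hypoxia-induced genes. It also had the lowest summed leukocyte (764 CPM), macrophage (993 CPM), neutrophil (26.3 CPM), endothelial (108 CPM) and muscle (4.52 CPM) markers of the knockout tumors, but not the lowest T cell (137 CPM), fibroblast (1360 CPM) or erythroid (19.0 CPM) markers. In control tumors the leukocyte sum was lowest in tumor 3 (463 CPM), where the set had its highest median deviation (0.166), and was 672 CPM in tumor 1. Knockout tumor 6 was the knockout tumor with the fewest counts, 16032223. The part of host content and of depth in its low values was not tested.

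Control tumor 1 was the lowest of 8 control tumors in 23 of 37 genes (20.4% of all genes), with a median deviation of -0.255, and was the control tumor with the fewest counts, 14140769. Its Bnip3 was 235 CPM, where the others were 314 to 465.7 CPM, and its Pgk1 was 2210 CPM against 2730 to 4037 CPM in the others. At the upper end, knockout tumor 7 was highest in 17 genes, and control tumors 3 and 8 in 14 each. Control tumor 3 was also lowest in 6 genes. Without knockout tumor 6 and control tumor 1, a pair left out after seeing the data, 24 genes fell and 3 rose, with a median of -0.311.

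**Figure D3:**
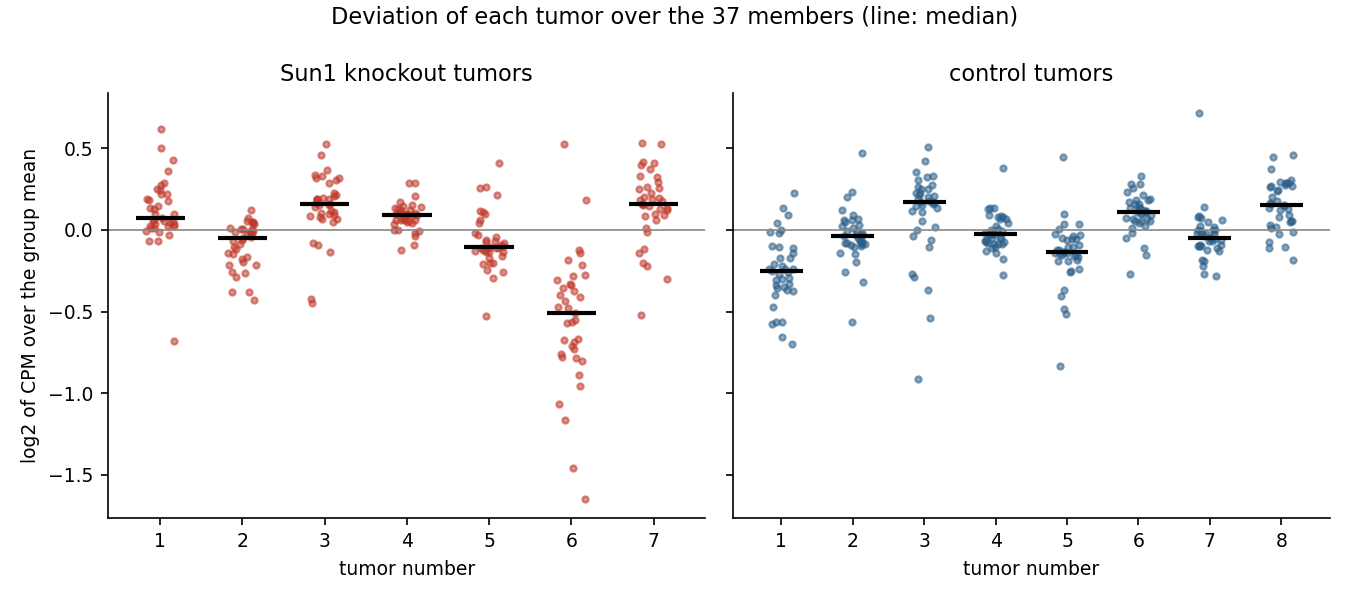
Log2 of each tumor's CPM over the mean of its genotype (pseudocount 0.1 CPM), 1 point per gene of the set and a black line at the median of the 37 genes, for 7 knockout and 8 control tumors. Knockout tumor 6 has a median of -0.511 and control tumor 1 of -0.255, below the other tumors of their genotype.

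Ratios between partner genes within a tumor do not depend on scaling between libraries. For 10 pairs the log2 ratio of TPM (transcript abundance scaled for length and depth; pseudocount 0.1) was compared between genotypes by a two-sided exact permutation test, adjusted over the 10 pairs, whose smallest possible p is 0.000155. Of the 10 pairs 7 passed. Slc16a3 over Slc16a1 fell from -0.119 (SD 0.115, n = 8) to -1.14 (SD 0.585, n = 7), and the genotypes did not overlap (adjusted p = 0.000518, exact permutation test). In control tumors the 2 lactate transporters were thus at nearly equal TPM, 46.5 and 50.6, and in knockout tumors at 20.1 and 44.0. Pfkl over Pfkp fell by 0.592 and Eno2 over Eno1 by 0.526, again with no overlap (adjusted p = 0.000518 each, exact permutation test). Pfkl over Pfkp was also lowest in the knockout outside tumors, at 1.28 and 1.56 in purified cells against 2.07 to 2.27 in line 1 and 2.41 to 2.53 in line 2, and at 0.831 in culture against 1.94 and 1.89; these were not tested. Slc2a3 over Slc2a1 rose by 1.08 (adjusted p = 0.000777) and Ldhb over Ldha by 0.889 (adjusted p = 0.00404), both in the exact permutation test with overlapping genotypes. Slc2a3 and Ldhb were nearly absent from purified and cultured cells, with 16 and 1 counts over 9 libraries. The part of host cell content in these 2 ratios was not tested. Pfkm over Pfkp and P4ha2 over P4ha1 fell by 0.228 and 0.219 (adjusted p = 0.0175 and 0.00466, exact permutation test). The ratios Hk2 over Hk1, Aldoc over Aldoa and Pfkfb4 over Pfkfb3 differed by 0.0793, 0.228 and 0.0826 and did not pass; Aldoc over Aldoa passed with a pseudocount of 1 (0.311, adjusted p = 0.0291, exact permutation test). In TPM the set spans from Gapdh at a mean of 4520 in control tumors to Ldhb at 1.36, and Gapdh, Pgk1, Ldha, Eno1 and Pkm lead in both genotypes in that order. The ranges of Pgk1, Ldha and Eno1 overlapped each other among control tumors (2020 to 2910, 2200 to 2760 and 2150 to 2570 TPM). The order of these 3 genes was not tested.

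In purified tumor cells the knockout was compared with both control lines together, and 0 of 33 tested genes passed in either direction, where 2.29% of all genes fell and 2.26% rose (4.55% in either direction). At an unadjusted edgeR p under 0.05 there were 6 of 33 (18.2%; 21.8% of all genes): Slc16a3, Aldoc, Pfkp, Slc2a1, Eno1 and Mxi1. The share of the set was no larger than that of all genes. DESeq2 called 2 lower (Slc16a3 and Slc2a1) and 1 higher (Pfkp). Slc16a3 was at 2.75 and 2.18 CPM in the knockout, 4.67 and 12.2 CPM in control line 1 and 16.2 and 23.7 CPM in control line 2, so both knockout values were lowest, with a difference of -2.52 ± 0.63 (edgeR adjusted p = 0.072). Pfkp was at 72.6 and 69.4 CPM in the knockout, 31.4 and 48.1 CPM in line 1 and 44.6 and 58.8 CPM in line 2 (0.64 ± 0.21, edgeR adjusted p = 0.117). Both knockout values of Pfkp were above all 4 control values.

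The control lines differed from each other in the set, and so did the 2 libraries of line 1. Against line 2 alone the knockout was lower in 13 genes and higher in 2, with a median of -0.427, where 8.85% of all genes were lower and 10.2% higher. Against line 1 alone it was lower in 3 and higher in 4, with a median of -0.00751, where 12.8% of all genes were lower and 11% higher, so the counts against line 1 were near those shares. Slc16a3 (lower) and Pfkp (higher) passed against each line. Ndrg1 was at 237 and 137 CPM in the knockout, 176 and 375 CPM in line 1 and 593 and 580 CPM in line 2, so its fall of 1.64 against line 2 (edgeR adjusted p = 0.00337) had no counterpart against line 1 (-0.55, edgeR adjusted p = 0.628); the difference between these values was not tested. Within line 1, replicate 1 was below replicate 2 in 31 of 33 genes (52.5% of all genes), with a median log2 ratio of -0.613. It was also the purified library with the fewest counts, and the part of depth was not tested. Examples are Bnip3 at 53.0 and 166 CPM, Eno2 at 26.4 and 71.2 CPM and Car9 at 7.88 and 30.4 CPM. In the knockout it was replicate 2 that was lower, in 29 of 33 genes, with a median log2 ratio of 0.23, and in line 2 replicate 1 was lower in 25 (75.8%), with a median of -0.0668. Over all genes replicate 1 was lower in 50.9% in the knockout and 50.8% in line 2. Without line 1 replicate 1, 5 genes passed as lower in the knockout: Slc16a3, Slc2a1, Eno2, Ndrg1 and Pdk1.

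In culture 0 of 33 tested genes passed, as did 0% of all genes in each direction, in a fit with 1 knockout library. At an unadjusted edgeR p under 0.05 there were 4 of 33 (12.1%; 5.41% of all genes), which were Slc16a3, Pdk1, Pfkp and Bnip3. Slc16a3 was at 0.838 CPM in the knockout and at 6.97 and 9.34 CPM in control lines 1 and 2, a difference of -3.28 ± 0.53 (edgeR adjusted p = 0.354). DESeq2 called Slc16a3 (adjusted p = 0.00407), as did edgeR with no filter on low counts (adjusted p = 0.00127). In all these fits the spread comes only from the 2 control lines, so the calls compare 1 library with 2 and have no replicate of the knockout. Pfkp was at 82.4 CPM in the knockout against 46.9 and 60.6 CPM, so Slc16a3 was lowest and Pfkp highest in the knockout in culture too.

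**Figure D4:**
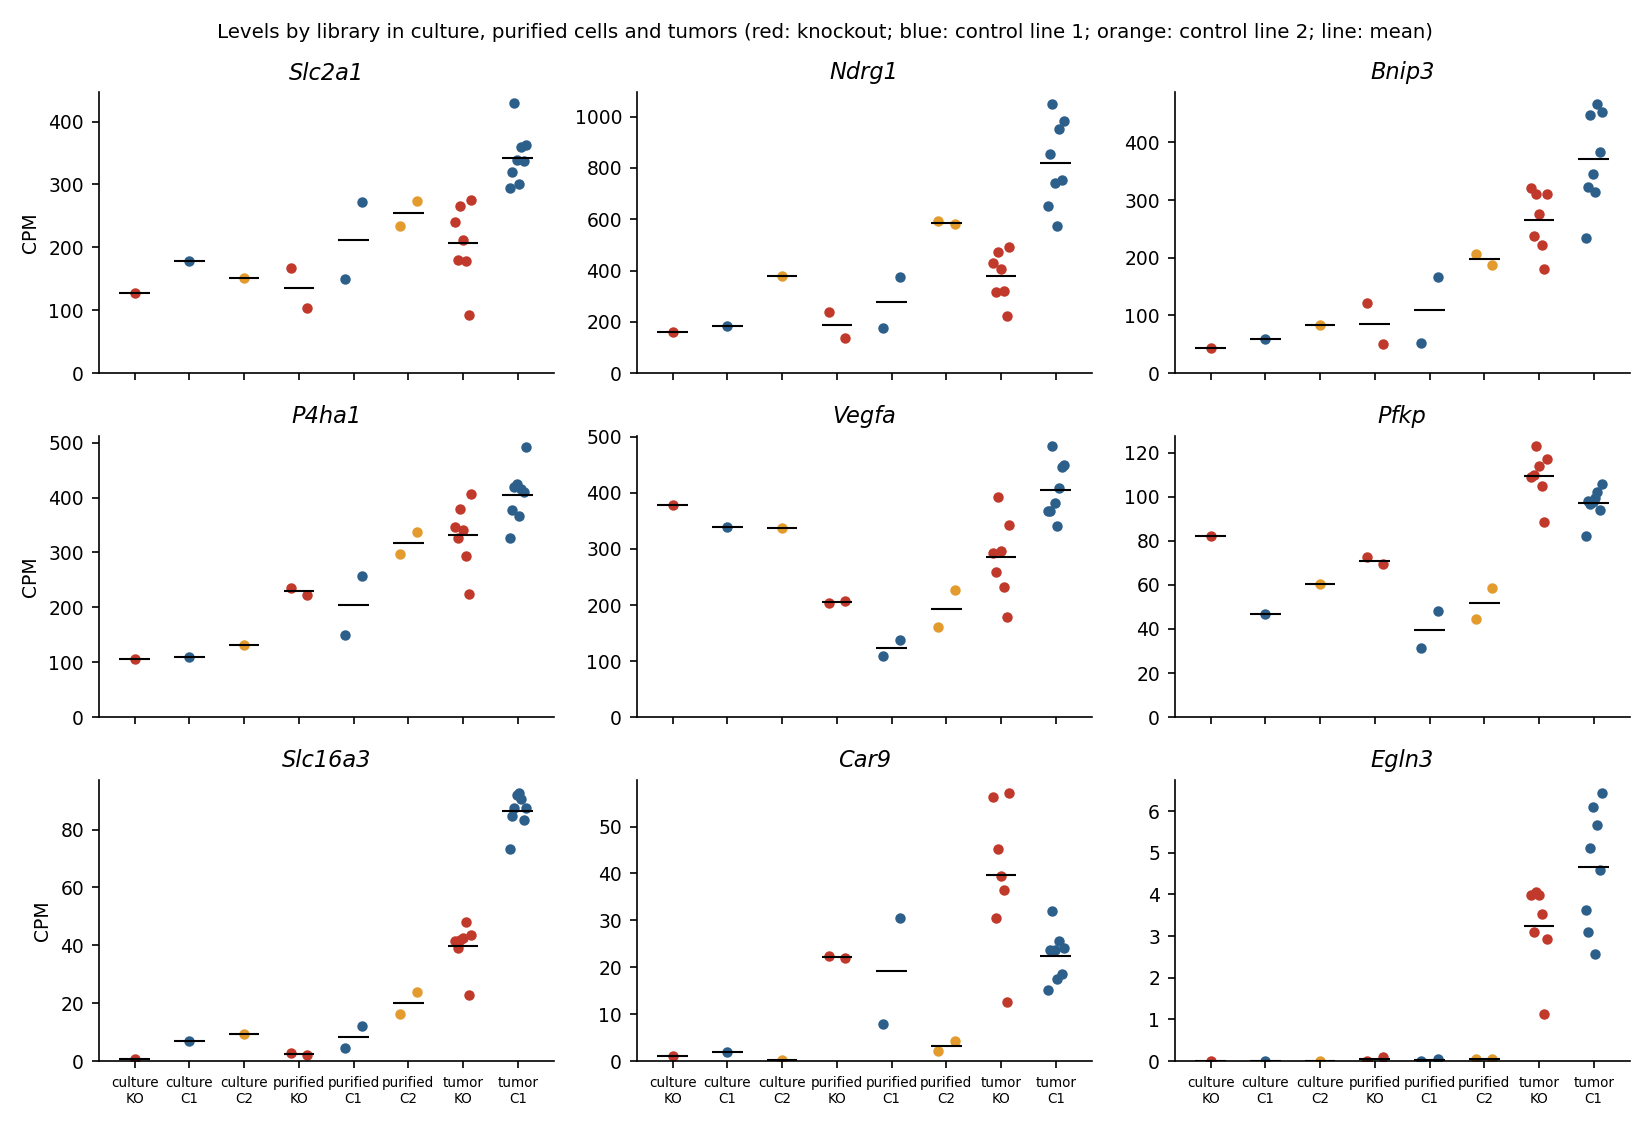
CPM of 9 genes in each library, in culture, purified cells and tumors, with knockout in red, control line 1 (C1) in blue, control line 2 (C2) in orange and a line at each mean. Slc16a3 is lowest in the knockout in all 3 settings, Egln3 is at most 0.0968 CPM outside tumors, and the 2 line 1 libraries of purified cells are far apart for Bnip3 (53.0 and 166 CPM).

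Most of the set was lower in purified cells than in whole tumors. In control line 1, 29 of 37 genes were higher in tumors than in purified cells and 2 were lower, where over all genes 30.2% were higher and 23.7% lower (53.9% in all). The median log2 fold change was 1.03. In the knockout line 21 genes were higher and 3 lower, where over all genes 31.1% were higher and 25.3% lower (56.4% in all), with a median of 0.603. Without knockout tumor 6, 26 were higher and 4 lower. These comparisons share tumor libraries with the genotype comparison. Purified cells held less of the leukocyte, T cell and endothelial markers than tumors. They were also dissociated and handled, so loss of host RNA and loss of the hypoxic state during handling cannot be told apart. The leukocyte sum was 2.89 to 12.2 CPM in purified cells, 3.41 to 4.39 CPM in culture and 463 to 1230 CPM in tumors. The macrophage sum was 55.9 to 96.9 CPM in purified cells, above the 30.4 to 51.5 CPM of culture and far below tumors. Fibroblast markers were not depleted, with sums of 1910 to 2020 CPM in purified knockout cells and 3010 to 3280 CPM in purified line 1. Tumors of these lines were at 1330 to 2160 and 1600 to 2220 CPM. Purified line 2, which has no tumor libraries, was at 1210 to 1370 CPM. In culture the fibroblast sum was 468 CPM in the knockout, 632 CPM in line 1 and 357 CPM in line 2. The muscle sum was 5.51 and 47.6 CPM in purified knockout cells. Which cells carry these markers was not tested. The neutrophil sum was 33.3 to 44.3 CPM in purified control cells, near that of tumors, and 9.73 to 15.5 CPM in purified knockout cells; Mmp9, a gelatinase, made up nearly all of it (32.98 CPM or more in purified control cells), while S100a8 was at 0 in purified cells.

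Of the set, 4 genes were close to absent in all 9 purified and cultured libraries. Ldhb had 1 count there in all, Egln3 5, Slc2a3 16 and Adm 24. In tumors Egln3, the HIF-induced prolyl hydroxylase, was at 1.12, 3.53 and 4.07 CPM at the lowest, median and highest knockout tumor and at 2.57, 4.84 and 6.43 CPM in control tumors. In purified cells it had 2 counts in the knockout (0 and 0.0968 CPM) and 1 in control line 1 (0 and 0.0529 CPM), for a ratio of tumor to purified of 70.3 (95% interval 19.3 to 582) and 164 (29.3 to 6480). These exact binomial intervals cover counting error only. Slc2a3 was at 0.0918 and 0.145 CPM in purified knockout cells and 0.182 and 0.0529 CPM in line 1, so whole tumors were 102-fold (43.8 to 316) and 86.4-fold (33.7 to 317) higher. Adm was 27.7-fold (10.7 to 102) and 28.9-fold (9.8 to 141) higher. Ldhb had 0 counts in purified knockout cells. From counts pooled over libraries, knockout tumors were 24.8-fold above a floor of 3 counts in both purified libraries together. The exact interval of the Ldhb ratio starts at 20, which is the lower limit. In control line 1 its ratio was 39.2 (6.93 to 1560). Counts this low set limits rather than levels for the cells of these lines.

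Pfkfb3 and Slc16a3 were readily detected in cells but far higher in tumors. Pfkfb3 was at 0.734 and 1.55 CPM in purified knockout cells, 0.909 and 1.11 CPM in purified line 1 and 21.1 to 33.9 and 21.5 to 31.5 CPM in knockout and control tumors (log2 fold changes 4.68 ± 0.27 and 4.73 ± 0.24, edgeR adjusted p = 1.63e-08 and 8.08e-10). The size was thus much the same in both lines. Slc16a3 was higher in tumors by 4.04 ± 0.29 in the knockout and by 3.38 ± 0.26 in line 1. Aldoc was at 0.0918 and 0.194 CPM in purified knockout cells and at 0.545 and 1.69 CPM in line 1; the tumors of either genotype were at 2.31 CPM or more.

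Several abundant enzymes did not pass. In control line 1 Gapdh, Pkm, Eno1, Pgam1, Hk1 and Car9 did not pass between tumors and purified cells (for Gapdh 0.23 ± 0.13, edgeR adjusted p = 0.163). Vegfa (1.75 ± 0.13), Bnip3 (1.80 ± 0.43), Eno2 (1.69 ± 0.30), Ankrd37 (1.67 ± 0.41), Ndrg1 (1.61 ± 0.31) and Higd1a (1.59 ± 0.27) were each higher in tumors. Pfkm was lower in tumors in both lines (-0.71 ± 0.10 in line 1, -0.79 ± 0.09 in the knockout), with purified cells at 58.9 to 61.4 CPM. Slc16a1 was lower in line 1 tumors (-0.30 ± 0.08), and Hk1 and Pgam1 in knockout tumors (-0.63 ± 0.18 and -0.53 ± 0.10). Single purified libraries carried part of this. Without purified line 1 replicate 1, the lower library, 22 genes were called higher in line 1 tumors and 1 lower; without purified knockout replicate 2, 11 were higher in knockout tumors.

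**Figure D5:**
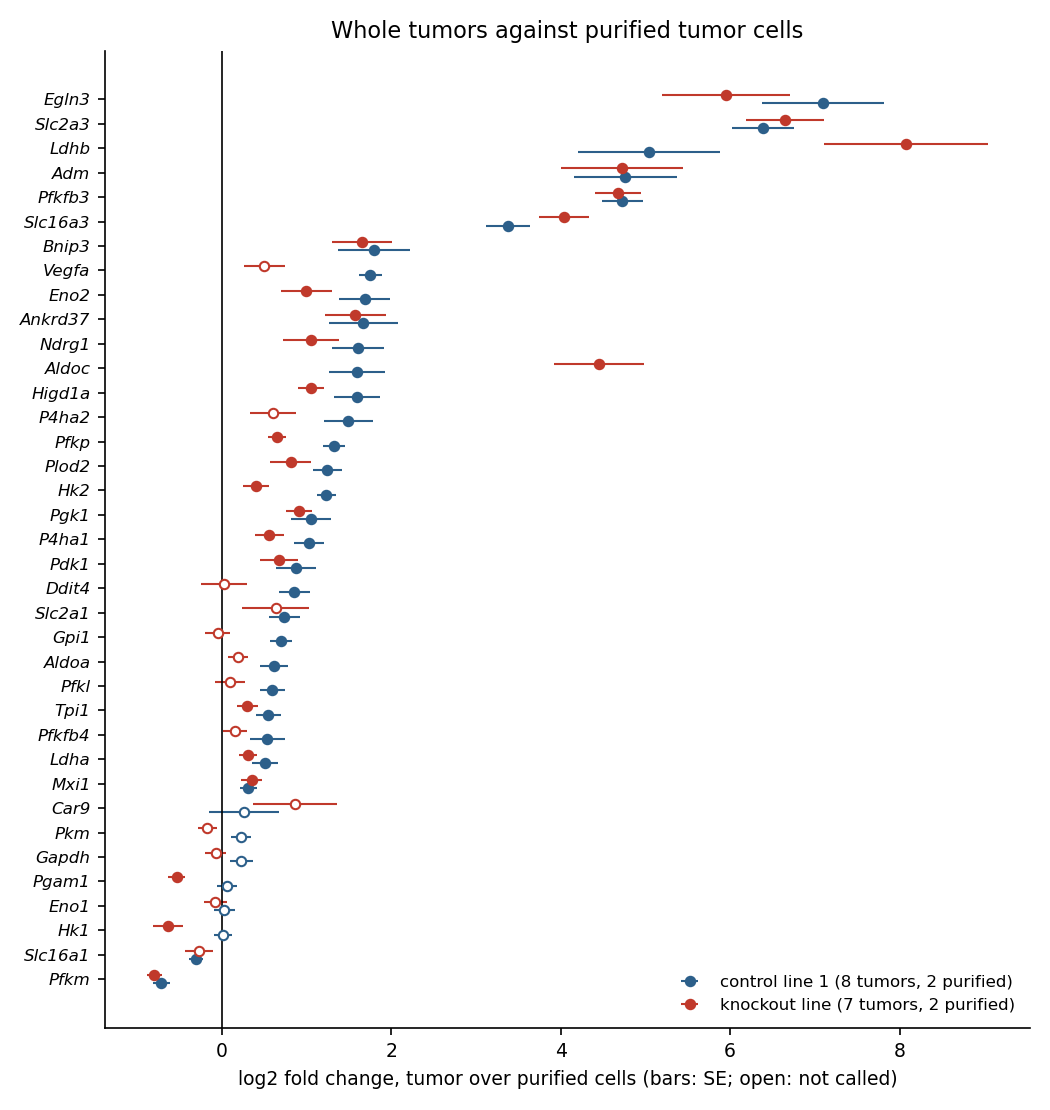
Log2 fold change of whole tumors over purified cells for the 37 genes in control line 1 (blue, 8 tumors against 2 libraries) and the knockout (red, 7 against 2), with standard errors and open points for genes that did not pass. Egln3, Slc2a3, Ldhb, Adm, Pfkfb3 and Slc16a3 lie above 3 in both lines; the fitted value of knockout Ldhb rests on 0 counts in purified cells and is no bound.

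Purified cells were then compared with the same 3 lines in culture, with line as a term. Of 33 tested genes 10 were higher in purified cells and 3 lower, where over all genes 21.0% were higher and 20.9% lower (41.9% in all). Growth as a tumor, isolation of the cells and remaining host RNA cannot be told apart here. The median was 0.309. Car9 had the largest change (log2 fold change 3.79 ± 0.61, edgeR adjusted p = 0.00249), from 1.18, 1.97 and 0.155 CPM in cultured knockout, line 1 and line 2 to 22.5 and 22.0, 7.88 and 30.4, and 2.16 and 4.34 CPM after purification. It was higher in every purified library than in the culture of its line. Ankrd37 (1.41 ± 0.40), P4ha1 (1.09 ± 0.15) and Plod2 (0.73 ± 0.13) were higher as well, as were Mxi1, Tpi1, Gpi1, Hk1, Pfkm and Slc16a1 by 0.24 to 0.63. Ankrd37 lost its call without any 1 of the 3 cultured libraries (edgeR adjusted p up to 0.122). P4ha1 was at 222 to 236 CPM in purified and 106 CPM in cultured knockout cells. Vegfa was lower (-1.05 ± 0.14, edgeR adjusted p = 0.000185), with 109 to 226 CPM in purified cells against 337 to 379 CPM in culture. Hk2 (-0.64 ± 0.16) and the flux activator Pfkfb4 (-0.61 ± 0.16) were lower too. Several calls besides that of Ankrd37 were lost without a single cultured library. Among them, Hk2 lost its call without cultured line 1, and Pfkfb4, Mxi1 and Gpi1 without cultured line 2. Pfkm lost its call without either of these 2 libraries. The count of higher genes was 5 without cultured line 2 and 17 without purified line 1 replicate 1.

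Whether the knockout effect differed between whole tumors and purified cells was tested as an interaction, with control line 1. Of the set, 5 genes had a lower effect in tumors (Hk2, Gpi1, Pfkp, Pgam1 and Vegfa) and Aldoc had a higher one, against 5.27% and 4.82% of all genes (10.1% in all). Vegfa was lower in knockout than control tumors but at 203 and 208 CPM in purified knockout cells against 109 and 138 CPM in line 1, an interaction of -1.24 ± 0.28 (edgeR adjusted p = 0.00923). Hk2 followed the same order, at 76.8 and 69.7 CPM against 51.9 and 63.9 CPM in purified cells (-0.82 ± 0.18, edgeR adjusted p = 0.00633). Control line 2 was not in this fit. Its purified cells were at 161 and 226 CPM for Vegfa and 76 and 129 CPM for Hk2. Neither gene was thus above both line 2 values in the knockout. The calls rest on single purified libraries. Without line 1 replicate 1 there were 0 lower and 2 higher, without line 1 replicate 2 there were 9 lower and 0 higher, and without knockout replicate 1 there were 2 lower and 0 higher, in fits added after seeing the data.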

How the data were processed

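RNA sequencing of poly(A)-enriched RNA from 24 libraries (HiSeq 4000, paired reads) was analysed. Per the submitters' processing notes, STAR, RSEM and the mm10 build were named; their versions are not given in the sources used here. The authors deposited RSEM expected counts per gene, which were rounded to whole numbers here and given as CPM (TMM scaling over all libraries). The authors also deposited TPM values, which RSEM scales by length and which were used for ratios between genes. Groups came from the labels. Each comparison was an edgeR 4.0.16 quasi-likelihood test (R 4.3.3, limma 3.58.1) on its own libraries after filterByExpr (minimum count 10, total 15), with Benjamini-Hochberg adjustment over all genes tested and a threshold of 0.05. DESeq2 1.42.0, other scaling, no filter, a host cell term, a replicate block and leaving out each library were alternatives. The members and gene lists were chosen with earlier results of these data known. Values were given for all members by a fixed rule: the 12 smallest p in tumors and the 6 largest changes against purified cells in each line, with others by range, and the 4 smallest p of each other list. Counts were simulated at the mean levels of these libraries, with 1 fixed spread for every gene and changes only in well-counted genes. On them the tumor comparison recovered 97% of genes changed 1.5-fold, the purified one 52.2% and the culture one 11.9%. The simulation held no outlying libraries, so recovery in the real data may be lower. Libraries of 1 group differed beyond sampling noise (chi-square per gene at least 7.38). Depth allows a floor of 3 counts, and count intervals cover counting error only.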

Additional observations from a re-analysis of the deposited data

Results flagged for a closer look

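In Dixon's test for 1 sample far from the others of its group, 8 of 74 tests of the 37 genes in 2 tumor groups were past the 95% value, where about 1 in 20 is past it by chance. Tests of genes in the same tumors are not independent, and the share past the value over all genes was not computed. Knockout tumor 6 gave 6 of the 8. Over all genes tested, this tumor was the lowest knockout tumor in 28.2% and the highest in 27.5%. It was far below the other knockout tumors in Hk1 (61.4 CPM), Gpi1 (513 CPM), Pfkl (157 CPM), Slc16a3 (22.8 CPM) and Egln3 (1.12 CPM), and far above them in the lactate carrier Slc16a1 (244 CPM). Control tumor 3 was far above the other control tumors in Hk1 (193 CPM) and Pfkl (374 CPM).

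By the edgeR interaction test with control line 1, 6 of the 37 genes passed for a knockout effect that differed between whole tumors and purified cells. Over all genes 10.1% passed. As given above, the calls of the set rest on single purified libraries. The effect in tumors minus that in purified cells was -0.82 in Hk2, -0.73 in Gpi1, -0.66 in Pfkp, -0.58 in Pgam1 and -1.24 in Vegfa on the log2 scale. In Aldoc, which had 6 counts in purified knockout cells, it was 2.88.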

How the results depend on the processing

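In tumors the set had 20 lower and 1 higher call with no filter on low counts (Pgk1, Bnip3, P4ha1, Pfkp and Ldhb lost theirs), and 1 lower and 0 higher with the host cell term, where Ldhb turned to -0.473. Leaving out 1 tumor gave 21 to 24 lower and 1 to 4 higher (1 without knockout tumor 4). In purified cells DESeq2 called 2 lower and 1 higher, control line 1 alone 3 and 4 (Hk2 turned to 0.351), and control line 2 alone 13 and 2; leaving out 1 library gave 0 to 5 lower and 0 higher. In culture DESeq2 and no filter each called 1 lower; no library could be left out, since no residual degree of freedom would be left. Over all genes, purified calls lower and higher were 621 and 582 by DESeq2, 454 and 454 with no filter and 147 and 156 with the block, against 286 and 282, and tumor calls with the host term were 165 and 45. In culture they were 31 and 13 by DESeq2 and 53 and 42 with no filter, against 0 and 0. Leaving out 1 library, calls higher in tumors than purified cells were 11 to 26 (knockout) and 22 to 29 (control), with 2 to 4 and 1 to 2 lower. Purified against culture gave 5 lower and 19 higher with no filter, and 5 to 17 higher and 2 to 3 lower without 1 library. The interaction gave 0 to 9 lower and 0 to 2 higher. The causes of these shifts were not tested.

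The replicate numbers did not pair the tumors: deviations of same-numbered tumors correlated at -0.11 to 0.22, over 0.1 in 2 of 7 pairs, and 0 of 7 correlated best with their own number. With the replicate block the tumor comparison had 20 lower and 3 higher (Car9, Bnip3, Pgk1 and P4ha1 lost their calls, with Car9 at 0.768 and adjusted p = 0.125, and Slc2a3 gained one), purified cells 0 and 0, knockout tumors against purified cells 4 lower and 25 higher, and control tumors 1 lower and 27 higher; 7 ratios passed. No paired analysis was possible in culture because each line has 1 library.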
